A study of Mus musculus with 12 samples.

Results

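This comparison asked how RNA in abdominal fat differed when an shRNA adenovirus against TSC22D4 was given to mice that also received one against LCN13. It set the 3 arrays of the combined group (replicates 13, 14 and 16) against the 3 arrays of the LCN13 group (replicates 5, 6 and 8), which are 6 of the 12 arrays of the series, and covered all 23185 probe sets with a gene name. Mice of all groups were BKS.Cg-Dock7m +/+ Leprdb/J, a strain that lacks a working leptin receptor and becomes obese and diabetic, and were injected at 12 weeks of age, with fat taken 1 week later. The LCN13 group carried 2e9 plaque-forming units of LCN13 shRNA virus and 2e9 of control shRNA virus. The combined group carried 2e9 of LCN13 virus and 2e9 of TSC22D4 virus, and no control virus. The LCN13 virus was therefore equal on both sides, while the TSC22D4 virus replaced the control virus, so a gain of the first and a loss of the second cannot be told apart. Of 7 animals in each group, 3 described as representative were put on arrays, so the animals were not a random choice. For the test of whether the LCN13 virus mattered, the same exchange without it was used: the TSC22D4 group (2e9 TSC22D4 virus and 2e9 control virus, replicates 10, 11 and 12) against control (4e9 control virus, replicates 1, 2 and 3).

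TSC22D4 belongs to a family of leucine zipper proteins that act on transcription, and in mouse liver it has been described as a repressor of Lcn13, which encodes a secreted lipocalin linked to insulin sensitivity. Type I interferon acts through the receptor chains IFNAR1 and IFNAR2, the kinases JAK1 and TYK2 and a transcription factor complex that contains IRF9 and binds interferon-stimulated response elements in the promoters of antiviral genes. IRF7, itself one of those genes, raises interferon production in turn. White fat cells take up glucose under insulin and turn part of it into fatty acids, which they store as triglyceride.

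Before any result, the likeness of the arrays has to be given, because the LCN13 replicates 5 and 6 stood apart from every other pair. Over 185 immunoglobulin variable genes, whose pattern differs from animal to animal with its antibody-forming cells, these arrays correlated at r = 0.988, while the other 11 pairs within a group lay between 0.733 and 0.831 and all 65 other pairs between 0.708 and 0.875. Only 7 genes differed more than 2-fold between the arrays 5 and 6, against 34 to 223 in the other pairs. Their largest difference was 1.80 on the log2 scale, against 3.07 to 5.70 elsewhere, although their typical difference (a median absolute deviation of 0.132) lay within the range of 0.122 to 0.243 of the other pairs. The labels list them as separate samples and do not say whether they came from 1 animal. The called genes and the counts of the main lists are therefore also given with replicates 5 and 6 averaged and counted as 1 sample, which leaves 2 LCN13 samples; this alternative was chosen after seeing the data.

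**Figure D1:**
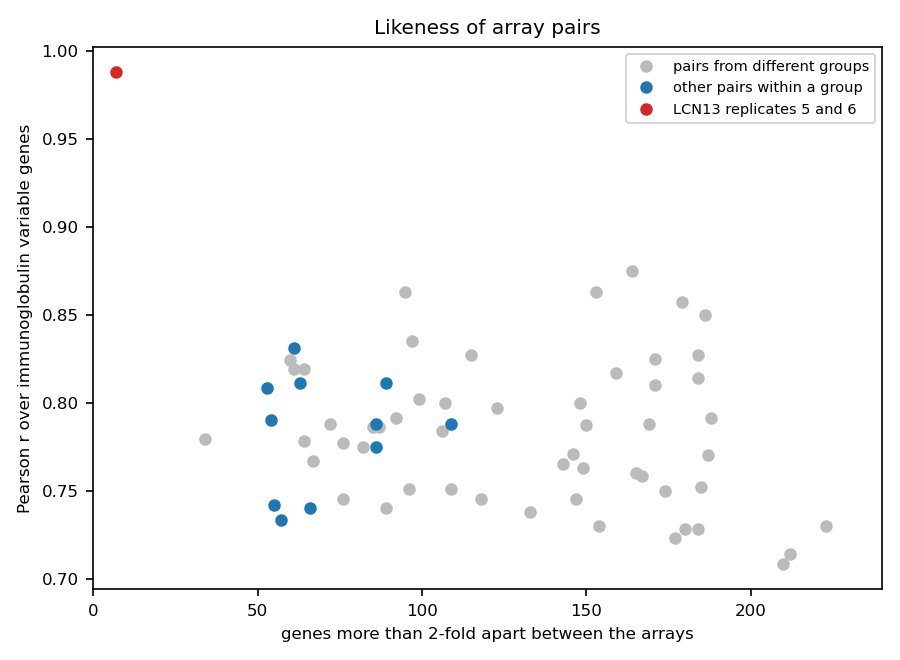
Each point is a pair of arrays, with the number of genes more than 2-fold apart on the x axis and Pearson's r over 185 immunoglobulin variable genes on the y axis. LCN13 replicates 5 and 6 lie alone at 7 genes and r = 0.988, and no other pair passes 0.875.

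Fat cell markers matched the label of the tissue. The mean of 13 adipocyte markers lay between 12.83 and 12.91 on 5 of the arrays compared and at 12.935 on the other, near the top of the scale (5.62 to 14.38, with a median of 6.308), and that of exocrine pancreas markers between 6.009 and 6.049. Adipoq, which encodes adiponectin, measured 12.40, 12.30 and 12.45 in the LCN13 arrays and 12.42, 12.35 and 12.21 in the combined arrays. Markers of some other cells differed between arrays. Epididymis markers averaged 5.832 to 5.968 on the arrays compared, highest on combined replicate 13, but 7.011 on TSC22D4 replicate 11. Gpx5 was also highest on these arrays, at 9.125 on combined replicate 13 and 11.41 on TSC22D4 replicate 11. Whether these samples held epididymal tissue was not tested. Red cell genes averaged 6.721, 6.739 and 7.76 in LCN13 replicates 5, 6 and 8 against 8.072, 7.858 and 7.961 in the combined arrays, and mesothelial genes averaged 7.77, 7.808 and 7.191 against 7.228, 7.224 and 7.288. For both lists replicate 8 lay apart from replicates 5 and 6 and close to the combined arrays.

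The targeted genes were examined first. Tsc22d4 measured 7.59, 7.74 and 7.67 in the LCN13 arrays and 7.59, 7.64 and 7.59 in the combined arrays, and the groups overlapped. The difference in log2 values was -0.06 (SE 0.08, adjusted p from limma = 0.842). Lcn13, listed as Obp2a, measured 5.71, 5.74 and 5.71 against 5.71, 5.73 and 5.73, close to the lowest value on the arrays, with a change of 0.0042 (adjusted p = 0.964). A lower level of Tsc22d4 was not detectable in this fat. The LCN13 virus was equal on both sides, so this comparison could not test the effect of that virus on Lcn13. Tsc22d1, Tsc22d2 and Tsc22d3, the other members of the TSC22 family on the arrays, had changes of -0.10, -0.03 and -0.04.

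Few genes passed limma's adjusted test when the TSC22D4 virus was added to the LCN13 virus. Dnajb9, which encodes a co-chaperone of the endoplasmic reticulum, rose by 0.36 log2, and Samd9l, an interferon-induced antiviral gene, fell by 0.37. These were the only genes of 23185 to be called, that is to have a limma adjusted p under 0.05, which is 0.00863% of the genes tested, 0.00431% in the higher and 0.00431% in the lower direction. Many more differed at an unadjusted limma p under 0.05, 2477 genes (10.7%) in either direction. Of these, 1185 (5.11% of the genes tested) lay higher and 1292 (5.57%) lower in the combined group. All 3 combined arrays lay above all 3 LCN13 arrays for 1694 genes (7.31%) and below them for 2137 (9.22%). With LCN13 replicates 5 and 6 averaged no gene passed limma's test (smallest adjusted p = 0.195), and 1712 had an unadjusted p under 0.05, 851 higher and 861 lower. The count of calls was also 0 without any 1 of control replicate 2, LCN13 replicates 5 or 6, TSC22D4 replicate 11 or combined replicates 13 or 14. It was 1 without control replicate 1, TSC22D4 replicate 10 or combined replicate 16, 4 without TSC22D4 replicate 12, 11 without control replicate 3, and 94 without LCN13 replicate 8, when the LCN13 group is left with the near-identical replicates 5 and 6.

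Dnajb9 assists the chaperone BiP and is a target of the IRE1 and XBP1 branch of the unfolded protein response, by which cells meet an excess of misfolded protein in the endoplasmic reticulum. Its log2 values were 10.89, 10.90 and 10.87 in the LCN13 group and 11.23, 11.29 and 11.22 in the combined group. Every combined array lay above every LCN13 array, by far more than either group's own spread, and the control arrays (10.85, 10.93 and 10.97) lay with the LCN13 arrays. The difference of 0.36 log2 (SE 0.04, adjusted p = 0.0444) is 1.28-fold. It remained 0.36 with replicates 5 and 6 averaged, but the adjusted p became 0.195. In the TSC22D4 arrays Dnajb9 measured 11.01, 11.09 and 11.10, between the control and the combined arrays.

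The rest of the unfolded protein response did not move as a block. Of 22 measured members 16 lay above 0 and the median change was 0.04, against -0.00195 over all genes. Besides Dnajb9, the only other member higher at an unadjusted p under 0.05 was Sdf2l1, a partner of BiP, at 0.18 (adjusted p = 0.257). Xbp1 and Atf4, transcription factors of that response, had changes of -0.09 and -0.18 (adjusted p = 0.307 and 0.285). Hspa5, which encodes BiP itself, measured 12.32, 12.34 and 12.42 against 12.50, 12.56 and 12.41, and its groups overlapped.

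Samd9l restrains virus replication and cell growth. Its log2 values were 8.98, 8.97 and 8.97 in the LCN13 group and 8.56, 8.56 and 8.70 in the combined group. The groups were apart, and both lay below the control arrays (9.63, 9.62 and 9.62). The fall of 0.37 (SE 0.04, adjusted p = 0.0444) means that the LCN13 group was 1.29-fold higher. With replicates 5 and 6 averaged the adjusted p was 0.222.

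**Figure D2:**
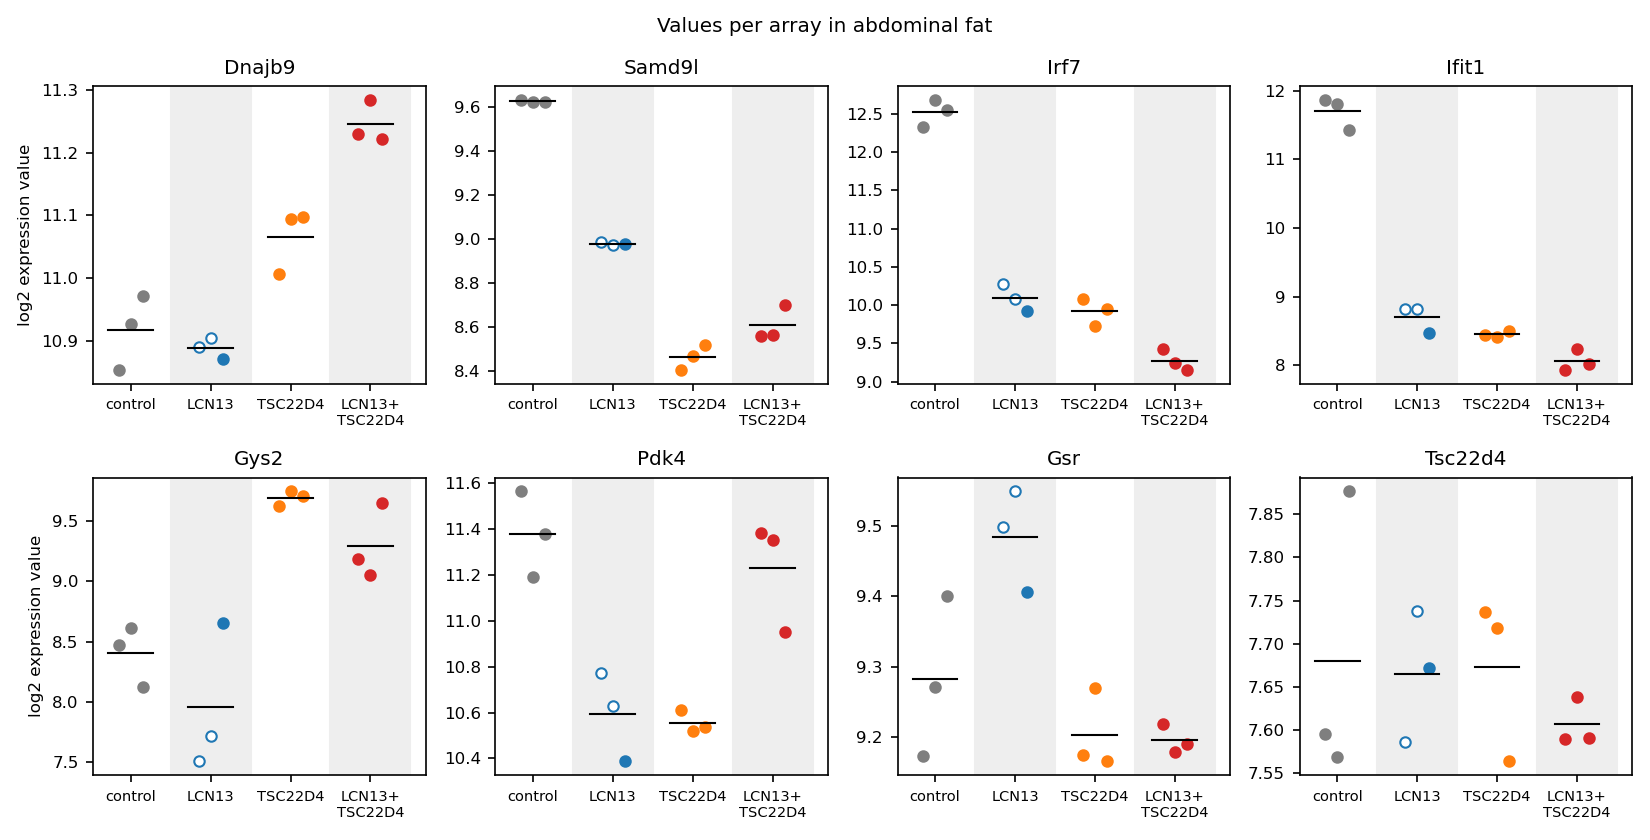
Log2 values of 8 genes on each of the 12 arrays, by group, with bars at the group means; open circles are LCN13 replicates 5 and 6, and the groups compared are shaded. Dnajb9 is high in the combined arrays (11.22 to 11.29), Samd9l, Irf7 and Ifit1 are lower there than in the LCN13 arrays, and Tsc22d4 overlaps between all groups.

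The promoters of these genes and of Ifit1 and Lgals9, interferon genes discussed next, are shown because the interferon lists share a promoter motif. Ifit1 and Lgals9 were picked from the lower interferon genes that hold this motif. They are taken from RefSeq on GRCm38.p6 and run from 250 bases before the annotated start to 50 after it. Capitals mark the letters GAAA, then 2 bases of any kind, then GAAA again, on either strand, the core of the interferon-stimulated response element.
Samd9l, chr6:3399522-3399821, strand minus: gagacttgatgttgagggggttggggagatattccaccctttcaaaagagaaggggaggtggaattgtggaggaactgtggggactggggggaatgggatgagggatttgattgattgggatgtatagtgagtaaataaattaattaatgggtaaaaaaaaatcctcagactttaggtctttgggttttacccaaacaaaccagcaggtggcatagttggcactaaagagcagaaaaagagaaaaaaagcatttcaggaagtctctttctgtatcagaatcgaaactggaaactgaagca
Ifit1, chr19:34640639-34640938, strand plus: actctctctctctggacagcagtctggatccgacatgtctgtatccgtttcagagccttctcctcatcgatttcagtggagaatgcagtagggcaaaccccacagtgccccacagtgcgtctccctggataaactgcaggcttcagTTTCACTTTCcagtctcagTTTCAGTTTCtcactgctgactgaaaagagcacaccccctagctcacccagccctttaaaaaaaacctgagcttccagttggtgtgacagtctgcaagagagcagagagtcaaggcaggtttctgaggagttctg
Lgals9, chr11:78984875-78985174, strand minus: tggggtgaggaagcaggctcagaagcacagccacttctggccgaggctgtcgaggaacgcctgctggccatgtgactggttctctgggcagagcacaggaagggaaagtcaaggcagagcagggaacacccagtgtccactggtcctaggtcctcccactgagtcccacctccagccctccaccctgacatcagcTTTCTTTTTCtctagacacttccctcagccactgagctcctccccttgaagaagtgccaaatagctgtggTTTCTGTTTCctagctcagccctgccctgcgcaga
Dnajb9, chr12:44210019-44210318, strand minus: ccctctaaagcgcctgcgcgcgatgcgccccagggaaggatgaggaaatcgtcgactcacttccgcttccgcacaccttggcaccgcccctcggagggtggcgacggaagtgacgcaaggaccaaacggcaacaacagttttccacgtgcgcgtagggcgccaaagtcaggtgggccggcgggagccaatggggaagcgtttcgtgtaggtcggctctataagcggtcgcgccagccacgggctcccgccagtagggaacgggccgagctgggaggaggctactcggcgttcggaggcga
Ifit1 held the motif at 104 and 85 bases before its start, and Lgals9 at 55 before and 15 after it. The windows of Samd9l and Dnajb9 held no such match. Among the genes of the 8 interferon lists that have a window, 41 of 85 (48.2%) held the motif, against 3.88% of all genes tested. Of the interferon-list members that were lower at an unadjusted p under 0.05, 7 of 20 with a window held it, and of those higher, 3 of 4. Of the other members 31 of 61 held it, so the motif was not more common in the lower genes. The endoplasmic reticulum stress response element, searched on both strands by that name, was in 8 of 20 unfolded protein response genes and in 0.178% of the genes tested, and the Dnajb9 window held none.

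Interferon-related genes leaned low in the combined group, without passing the test apart from Samd9l. The 8 lists held 108 measured genes, and their median change was -0.05, against -0.00195 over all genes. At an unadjusted p under 0.05, 27 members (25.0%, against 5.57% of all genes) lay lower and 6 (5.56%, against 5.11%) higher. The groups did not overlap for 30 members in the lower direction (27.8%, against 9.22%) and for 7 in the higher (6.48%, against 7.31%). With replicates 5 and 6 averaged the counts at an unadjusted p under 0.05 were 22 lower and 3 higher. Over all 23185 genes that fit had 861 lower and 851 higher. The mean over the 108 genes was 8.779, 8.786 and 8.795 in the LCN13 arrays and 8.714, 8.752 and 8.675 in the combined arrays. That gap was small beside the distance to control, whose arrays averaged 9.845, 10.061 and 9.799.

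The transcription factors of the pathway were among the lower genes. Irf7 measured 10.28, 10.08 and 9.93 in the LCN13 arrays and 9.43, 9.25 and 9.15 in the combined arrays, a change of -0.82 (SE 0.13, adjusted p = 0.109). Irf9, the DNA-binding subunit of the complex named above, measured 9.00, 9.12 and 9.06 against 8.62, 8.73 and 8.53, a change of -0.43 (SE 0.06, adjusted p = 0.0739). In both genes each combined array lay below each LCN13 array. Irf3, which is activated by viral nucleic acid rather than induced by interferon, had a change of -0.23 (adjusted p = 0.156), and its LCN13 values of 9.29 to 9.45 lay above the control values of 9.04 to 9.12 as well. The receptor genes Ifnar1 and Ifnar2 and the kinase genes Jak1 and Tyk2 had changes between -0.01 and 0.06. Stat2 had a change of -0.19 (adjusted p = 0.548), with overlapping groups.

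Sensors of viral nucleic acid showed the same side. Of 16 measured, 12 lay below 0 and 6 were lower at an unadjusted p under 0.05, against 5.57% of all genes. Ddx58, which encodes the RNA sensor RIG-I, measured 10.92, 10.83 and 10.76 against 10.51, 10.57 and 10.49, a change of -0.31 (SE 0.06, adjusted p = 0.166). Dhx58 and Ifih1, which encode its relatives LGP2 and MDA5, had changes of -0.42 and -0.31 (adjusted p = 0.301 and 0.33), and Zbp1, a sensor of Z-form nucleic acid, -0.47 (adjusted p = 0.315). Cgas, Mavs and Aim2 had changes between -0.02 and 0.03. Oas and Oasl genes, whose products make or respond to the messenger that activates RNase L, had a median of -0.12 over 8 members, of which Oasl2 had the smallest p (-0.60, adjusted p = 0.196).

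Among 30 other antiviral effectors, 25 lay below 0 and 13 were lower at an unadjusted p under 0.05 (43.3%, against 5.57% of all genes), with 0 higher. Rtp4, an interferon-induced receptor chaperone, measured 8.62, 8.71 and 8.37 in the LCN13 arrays and 7.75, 7.82 and 7.95 in the combined arrays, a change of -0.73 (SE 0.10, adjusted p = 0.0928). Lgals9, which encodes galectin-9 and holds the motif on both sides of its start, measured 11.77, 11.84 and 11.70 against 11.21, 11.37 and 11.44 (-0.43, SE 0.06, adjusted p = 0.109). Neither gene's groups overlapped. Xaf1, a partner of the apoptosis inhibitor XIAP, had a change of -0.43, Lgals3bp, a secreted glycoprotein, -0.30, and Sp100, a nuclear body protein, -0.22. The 8 IFIT and IFITM genes did not lean one way, with 5 above 0, 3 below and a median of 0.01. Among them Ifit1, which binds foreign RNA caps and holds the motif 104 bases before its start, measured 8.82, 8.81 and 8.47 against 7.93, 8.24 and 8.02 (-0.64, SE 0.13, adjusted p = 0.178). Usp18, which takes ISG15 off proteins and damps receptor signalling, had a change of -0.63 (adjusted p = 0.214). The Schlafen and Ifi200 families had a median of -0.01 over 17 members, with 0 members past an unadjusted p of 0.05 in either direction.

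Guanylate-binding proteins and immunity-related GTPases, which act on intracellular pathogens and respond strongly to interferon gamma, had the opposite sign. Their median was 0.18 over 12 measured genes, 10 of which lay above 0 and 4 of which were higher at an unadjusted p under 0.05 (33.3%, against 5.11% of all genes). Igtp measured 9.75, 9.89 and 10.39 in the LCN13 arrays and 10.75, 10.51 and 10.60 in the combined arrays, a change of 0.61 (SE 0.18, adjusted p = 0.286). Gbp4 measured 9.12, 9.24 and 10.16 against 10.64, 10.23 and 10.13 (0.83, SE 0.26, adjusted p = 0.306). LCN13 replicate 8 lay beside the combined arrays for Gbp4, and its value lay above 1 of them. The mean over the 12 genes was 8.94, 9.007 and 9.31 in the LCN13 arrays and 9.46, 9.299 and 9.245 in the combined arrays. For the list as a whole, too, replicate 8 lay among the combined arrays. With replicates 5 and 6 averaged 2 members were higher at an unadjusted p under 0.05, against 851 of all 23185 genes. The median was then 0.13. Ube2l6, the conjugating enzyme for ISG15, also lay on the higher side (0.46, adjusted p = 0.267), as did Ifitm2 (0.36, adjusted p = 0.387), whereas Ifitm3, which blocks virus entry, lay on the lower side (-0.24, adjusted p = 0.196).

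Exchanging control virus for TSC22D4 virus went with another change when the LCN13 virus was present than when it was absent. The amount of control virus differed between these settings as well, and its part cannot be told apart from that of the LCN13 virus. The difference of both changes, tested as an interaction in the same limma fit, passed for 85 genes above 0 (0.367% of genes tested) and 7 below 0 (0.0302%). Of the 85, 50 belonged to the 8 interferon lists, 46.3% of their members. The median change over the 108 interferon genes was -0.84 for the TSC22D4 group against control and -0.05 for the combined group against LCN13, 2 comparisons that share no array. With replicates 5 and 6 averaged 67 genes passed above 0 and 3 below. Calls in both directions fell from 92 to 53 without LCN13 replicate 5, 47 without TSC22D4 replicate 10, 54 without TSC22D4 replicate 11 and 60 without combined replicate 13.

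Oas1g, an oligoadenylate synthetase, had the largest interaction. It measured 9.90, 10.53 and 9.98 in control and 6.69, 6.38 and 6.86 with the TSC22D4 virus alone. In the LCN13 arrays it was already at 6.43, 6.48 and 6.32, and the combined arrays were at 6.31, 6.50 and 6.33. The interaction was 3.46 (SE 0.23, adjusted p = 0.000409). Oas3 (3.41), the DNA sensor family members Ifi213 (3.21) and Ifi209 (2.86), and Ifit1 (2.61) followed, and members of the Oas and Ifi200 families can share probe signal. In each of these genes the LCN13 arrays lay near the TSC22D4 arrays, while the control arrays lay far above both. For Oas1g, Oas3 and Ifi213 the LCN13 arrays were already close to the median of all values (6.308). A further fall with the TSC22D4 virus had little room to show there. The interaction of these genes is therefore mostly the drop from control without the LCN13 virus. Ifit1 lay well above that median in the LCN13 arrays, at 8.82, 8.81 and 8.47.

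Samd9l was called in both tests. Its change was -1.16 without the LCN13 virus and -0.37 with it, an interaction of 0.79 (adjusted p = 0.000409). Irf7 had changes of -2.60 and -0.82 (interaction 1.78, adjusted p = 0.00319) and Rtp4 of -2.21 and -0.73 (1.48, adjusted p = 0.00266). For Irf9 the changes were -0.84 and -0.43, and the interaction of 0.41 did not pass (adjusted p = 0.111). Pdk4, which encodes a kinase that shuts off pyruvate dehydrogenase, also passed the interaction test, and it belongs to no interferon list. It measured 11.57, 11.19 and 11.38 in control, 10.61, 10.52 and 10.54 with the TSC22D4 virus, 10.77, 10.63 and 10.39 with the LCN13 virus and 11.38, 11.35 and 10.95 with both. Its change was -0.82 without and 0.63 with the LCN13 virus (interaction 1.45, SE 0.20, adjusted p = 0.0148).

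**Figure D3:**
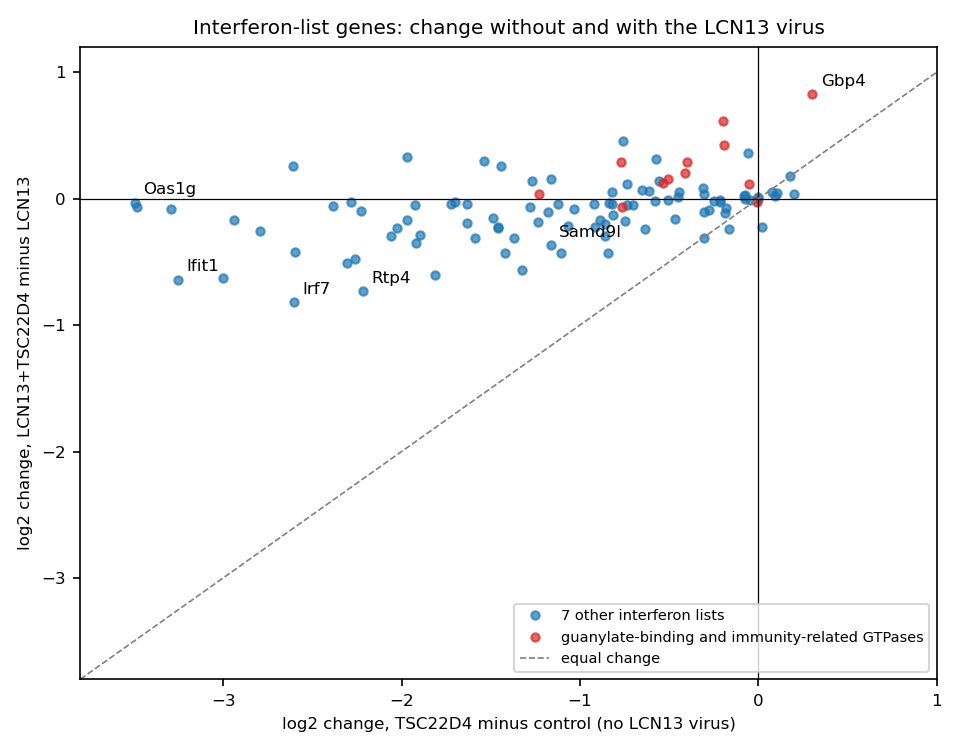
Each point is 1 of the 108 interferon-list genes, with its log2 change for TSC22D4 against control on the x axis and for the combined group against LCN13 on the y axis. Most points lie above the dashed line of equal change: the x values reach -3.50 (Oas1g) while the y values stay between -0.82 (Irf7) and 0.83 (Gbp4).

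Genes with an interaction below 0 were few and differed in function. Mrto4, a ribosome assembly factor, measured 8.30, 8.14 and 8.26 in the LCN13 arrays and 7.88, 7.93 and 7.92 in the combined arrays (interaction -0.61, adjusted p = 0.0387). Podxl, a sialomucin of vessel lining and mesothelium, followed with -0.60, Rab11b, a GTPase of recycling endosomes, with -0.47, Des, the intermediate filament of muscle, with -0.45, and Plec, a linker of filaments to the membrane, with -0.40. For each of these 5 genes the LCN13 group had the highest mean of the 4 groups. None of Podxl, Des, Plec and Mrto4 passed with replicates 5 and 6 averaged (adjusted p = 0.0563 to 0.137), and Rab11b did (0.0483).

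Outside the interferon lists, the genes next in rank did not pass but had groups that did not overlap. On the higher side were Tmem260 (0.24), Mpv17, a protein of the inner mitochondrial membrane (0.23), Atg10, an enzyme that joins ATG12 to ATG5 in autophagy (0.51), and the zinc finger gene Zfp984 (0.70), each at an adjusted p of 0.0523. Atg10 measured 9.83, 9.62 and 9.80 in the LCN13 arrays and 10.25, 10.28 and 10.26 in the combined arrays, and its TSC22D4 arrays (10.21, 10.29 and 10.33) were as high. Mcts1, a factor that restarts translation, Cd59a, an inhibitor of complement, the histone gene H3c15, Olr1, a receptor for oxidised lipoprotein, and Crot, a peroxisomal carnitine acyltransferase, had changes of 0.26, 0.17, 0.42, 0.86 and 0.16. On the lower side Jarid2, a subunit of Polycomb complex PRC2, measured 10.06, 10.10 and 10.05 against 9.90, 9.88 and 9.84 (-0.20, adjusted p = 0.0523), and Rab11b 8.46, 8.44 and 8.42 against 8.07, 8.05 and 8.12 (-0.36, adjusted p = 0.0523). Ankrd54, Plec, Axin2, a feedback inhibitor of Wnt signalling, and Cracdl had changes between -0.28 and -0.26, each at an adjusted p of 0.109.

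Glutathione and antioxidant genes lay mostly below 0. Of 23 measured, 18 lay below 0, 7 were lower at an unadjusted p under 0.05 (30.4%, against 5.57% of all genes) and 0 higher, and 10 had combined arrays all below the LCN13 arrays (43.5%, against 9.22%). Their median of -0.05 was modest. Slc7a11, the cystine transporter that feeds glutathione synthesis, measured 6.54, 6.49 and 6.38 in the LCN13 arrays and 6.14, 6.15 and 6.12 in the combined arrays (-0.34, adjusted p = 0.169). Gsr, glutathione reductase, measured 9.50, 9.55 and 9.41 against 9.22, 9.18 and 9.19 (-0.29, adjusted p = 0.173). Replicate 8 was the LCN13 array nearest to the combined arrays in both genes, but it stayed above them. Gsta4, a glutathione transferase for lipid aldehydes, had a change of -0.41, Gclc, the rate-limiting ligase of glutathione synthesis, -0.29, and Txnrd1, thioredoxin reductase, -0.21. With replicates 5 and 6 averaged 6 of the 23 were lower at an unadjusted p under 0.05, against 861 of all 23185 genes. Nfe2l2, Hmox1 and Nqo1, the regulator of this programme and well-known targets of it, had changes of -0.05, -0.03 and 0.01.

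Enzymes of fatty acid synthesis leaned higher in the combined group, mostly by way of LCN13 replicates 5 and 6. Of 20 measured, 17 lay above 0, 7 were higher at an unadjusted p under 0.05 (35.0%, against 5.11% of all genes) and 1 lower, with a median of 0.22. Acss2, which makes acetyl-CoA from acetate, measured 10.03, 10.25 and 10.85 against 11.19, 10.86 and 11.08 (0.67, SE 0.20, adjusted p = 0.299). Elovl6, an elongase, measured 9.78, 9.44 and 10.51 against 10.73, 10.46 and 10.83 (0.76, adjusted p = 0.423). In both genes LCN13 replicate 8 lay near or among the combined arrays. Acacb, the acetyl-CoA carboxylase of the mitochondrial surface, was different, since replicate 8 was the lowest of its LCN13 arrays (8.75, 8.68 and 8.41 against 9.14, 9.03 and 8.93; 0.42, adjusted p = 0.305). Fads1, a desaturase of polyunsaturated fatty acids, lay on the lower side (-0.21, adjusted p = 0.261). With replicates 5 and 6 averaged 2 members were higher at an unadjusted p under 0.05, against 851 of all 23185 genes. The median was then 0.15. Fasn, Scd1 and Srebf1 had changes of 0.23, 0.0026 and 0.05.

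Gys2, the glycogen synthase known from liver, measured 7.50, 7.71 and 8.66 in the LCN13 arrays and 9.18, 9.05 and 9.65 in the combined arrays, a change of 1.34 (SE 0.28, adjusted p = 0.182). The groups did not overlap, and replicate 8 lay about midway. The TSC22D4 arrays were as high (9.62, 9.75 and 9.71), and the change without the LCN13 virus was 1.29. Gyg, the primer of glycogen synthesis, measured 12.04, 12.01 and 12.17 against 12.28, 12.28 and 12.33 (0.22, adjusted p = 0.156), and Hk1, a hexokinase, lay on the lower side (-0.18, adjusted p = 0.288).

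Genes of mitochondrial fuel use were mostly on the higher side. Fatty acid oxidation genes had a median of 0.14, with 16 of 18 above 0. At an unadjusted p under 0.05, 4 were higher (22.2%, against 5.11% of all genes). Their mean was 9.902, 9.903 and 10.058 in the LCN13 arrays and 10.12, 10.108 and 10.091 in the combined arrays, so LCN13 replicate 8 lay near the combined arrays. With replicates 5 and 6 averaged 3 of the 18 were higher at an unadjusted p under 0.05, against 851 of all 23185 genes. Their median was then 0.10. Hadha, a subunit of the trifunctional protein, measured 11.71, 11.78 and 11.79 against 11.92, 11.91 and 11.95 (0.17, SE 0.03, adjusted p = 0.159), with no overlap. In the tricarboxylic acid cycle and pyruvate dehydrogenase list the median was 0.06, with 14 of 22 above 0 and 8 below. The list's mean was 10.258, 10.286 and 10.37 in the LCN13 arrays and 10.417, 10.408 and 10.406 in the combined arrays, with replicate 8 nearest to the combined arrays. At an unadjusted p under 0.05, 7 of the 22 were higher (31.8%, against 5.11% of all genes) and 0 lower. Among them were the dehydrogenase subunits Dld (0.36), Dlat (0.24) and Pdha1 (0.23) and the phosphatase Pdp2 (0.15), which switches that complex on. Pdk4, whose product switches it off, was in the same direction (0.63, adjusted p = 0.193). With replicates 5 and 6 averaged 6 of the 22 were higher at an unadjusted p under 0.05, against 851 of all 23185 genes. The median was then 0.03. Oxidative phosphorylation genes were not part of this, with a median of 0.01 over 38, 0 higher and 2 lower at an unadjusted p under 0.05. Cholesterol synthesis genes had a median of 0.10, led by Lss, lanosterol synthase (0.51, adjusted p = 0.228). Of the 20 measured, 5 were higher at an unadjusted p under 0.05 (25.0%, against 5.11% of all genes) and 1 lower. With replicates 5 and 6 averaged 2 were higher. Their mean was 9.003, 8.978 and 9.111 in the LCN13 arrays and 9.145, 9.022 and 9.305 in the combined arrays, so replicate 8 lay among the combined arrays.

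**Figure D4:**
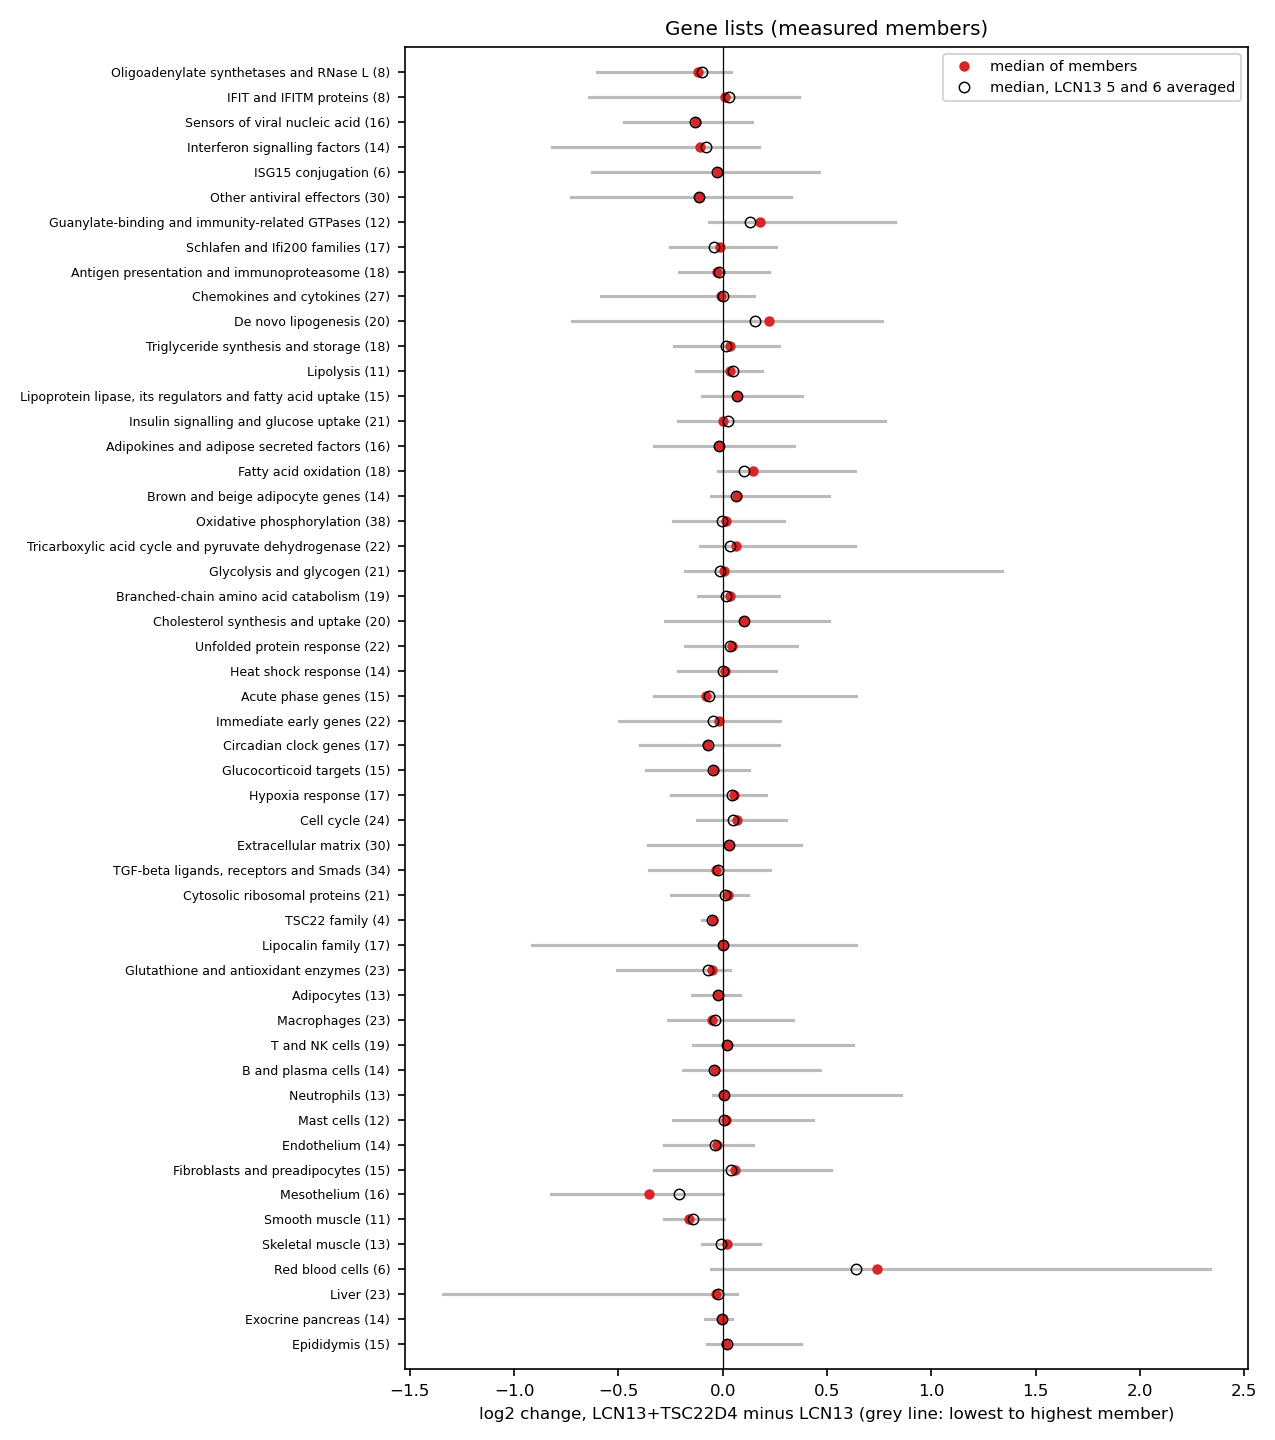
Log2 change of the combined group against LCN13 for each of the 52 gene lists: filled points are medians over measured members, open points the medians with LCN13 replicates 5 and 6 averaged, and grey lines run from the lowest to the highest member. Red cell genes lie farthest above 0 (median 0.74) and mesothelial genes farthest below (-0.36).

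Insulin signalling, fat cell identity and most readouts of adipose function showed small differences. The insulin signalling and glucose uptake list had a median of 0.00065, and its 1 member at an unadjusted p under 0.05 was Grb14, an adaptor that inhibits the insulin receptor. Grb14 measured 7.00, 7.56 and 8.10 in the LCN13 arrays and 8.23, 8.36 and 8.40 in the combined arrays (0.78, adjusted p = 0.272). Slc2a4, the insulin-sensitive glucose transporter, Irs1 and Irs2 had changes of 0.01, -0.03 and 0.34, with overlapping groups. Lep, Pparg, Pnpla2 and Ucp1 had changes of 0.05, -0.05, 0.02 and 0.05, and Pck1 of -0.12. For Slc2a4 the 95% interval of the change was -0.46 to 0.48, and for Irs1 -0.38 to 0.32. Lipolysis and triglyceride storage lists had medians of 0.03 and 0.04. Hcar2, a receptor that restrains lipolysis (0.19), and Plin2, a droplet coat protein (0.17), had the smallest p values in them. At an unadjusted p under 0.05, 3 of 11 lipolysis genes were higher (27.3%, against 5.11% of all genes) and 0 lower. Of 18 storage genes 3 were higher (16.7%) and 1 lower. With replicates 5 and 6 averaged, 2 lipolysis genes and 0 storage genes were higher, against 851 of all 23185 genes.

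Chemokine genes of smallest p lay on the lower side. Ccl2, the main monocyte chemokine, measured 11.83, 11.92 and 11.57 in the LCN13 arrays and 11.03, 10.85 and 11.70 in the combined arrays, a change of -0.59 (adjusted p = 0.342). Combined replicate 16 lay among the LCN13 arrays. Ccl7 (-0.48) and Cxcl10 (-0.49) were likewise not called, and the 27 chemokines and cytokines had a median of -0.0068. Cxcl10 measured 8.01, 7.90 and 7.16 in the LCN13 arrays and 7.18, 7.24 and 7.19 in the combined arrays. Its LCN13 replicate 8 thus lay below the combined arrays. Tnf, Adgre1 and Saa3 had changes of -0.16, 0.08 and -0.13. Among immediate early genes, Ier3 measured 8.15, 8.15 and 8.07 against 7.45, 7.80 and 7.63 (-0.50, adjusted p = 0.156) and Junb had a change of -0.29 (adjusted p = 0.183), both without overlap. In the TGF-beta list Tgfbi, a matrix protein induced by TGF-beta, measured 11.94, 11.90 and 11.88 against 11.56, 11.54 and 11.57 (-0.35, adjusted p = 0.204), and 24 of 34 members lay below 0.

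Levels of some marker genes of other cells went with the groups, and their part in the results above was not tested; in whole tissue, fewer cells of a type and less RNA per cell cannot be told apart. Red cell genes had a median of 0.74, with 5 of 6 measured members higher at an unadjusted p under 0.05, against 5.11% of all genes. Hbb-b1, a beta globin, measured 7.12, 7.26 and 10.08 in the LCN13 arrays and 10.76, 10.09 and 10.62 in the combined arrays. LCN13 replicate 8 lay next to the lowest combined array. With replicates 5 and 6 averaged 2 of the 6 were higher at an unadjusted p under 0.05, against 851 of all 23185 genes. Mesothelial genes, from the lining of visceral fat, had a median of -0.36, with 14 of 16 below 0 and 5 lower at an unadjusted p under 0.05 (31.2%, against 5.57% of all genes). Their median was -0.21 with replicates 5 and 6 averaged. Krt8, a keratin, measured 8.18, 8.14 and 8.04 against 7.33, 6.92 and 7.64 (-0.83, adjusted p = 0.241), with no overlap. Msln and Upk3b, defining mesothelial genes, had changes of -0.45 and -0.36 with LCN13 replicate 8 below the combined arrays. Smooth muscle genes had a median of -0.16 and lay below 0 for 10 of 11. T and natural killer cell genes had a median of 0.02 over 19 members, with 12 above 0 and 7 below. At an unadjusted p under 0.05, 2 of them were higher (10.5%, against 5.11% of all genes) and 0 lower. The higher genes were those of the natural killer cell receptors Ncr1 and Klrd1. Their changes were 0.62 and 0.58 (adjusted p = 0.186 and 0.214), and Ncr1 measured 7.48, 7.37 and 7.37 against 7.80, 8.24 and 8.06. Macrophage genes had a median of -0.05 over 23 members, and fat cell genes of -0.02 over 13.

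**Figure D5:**
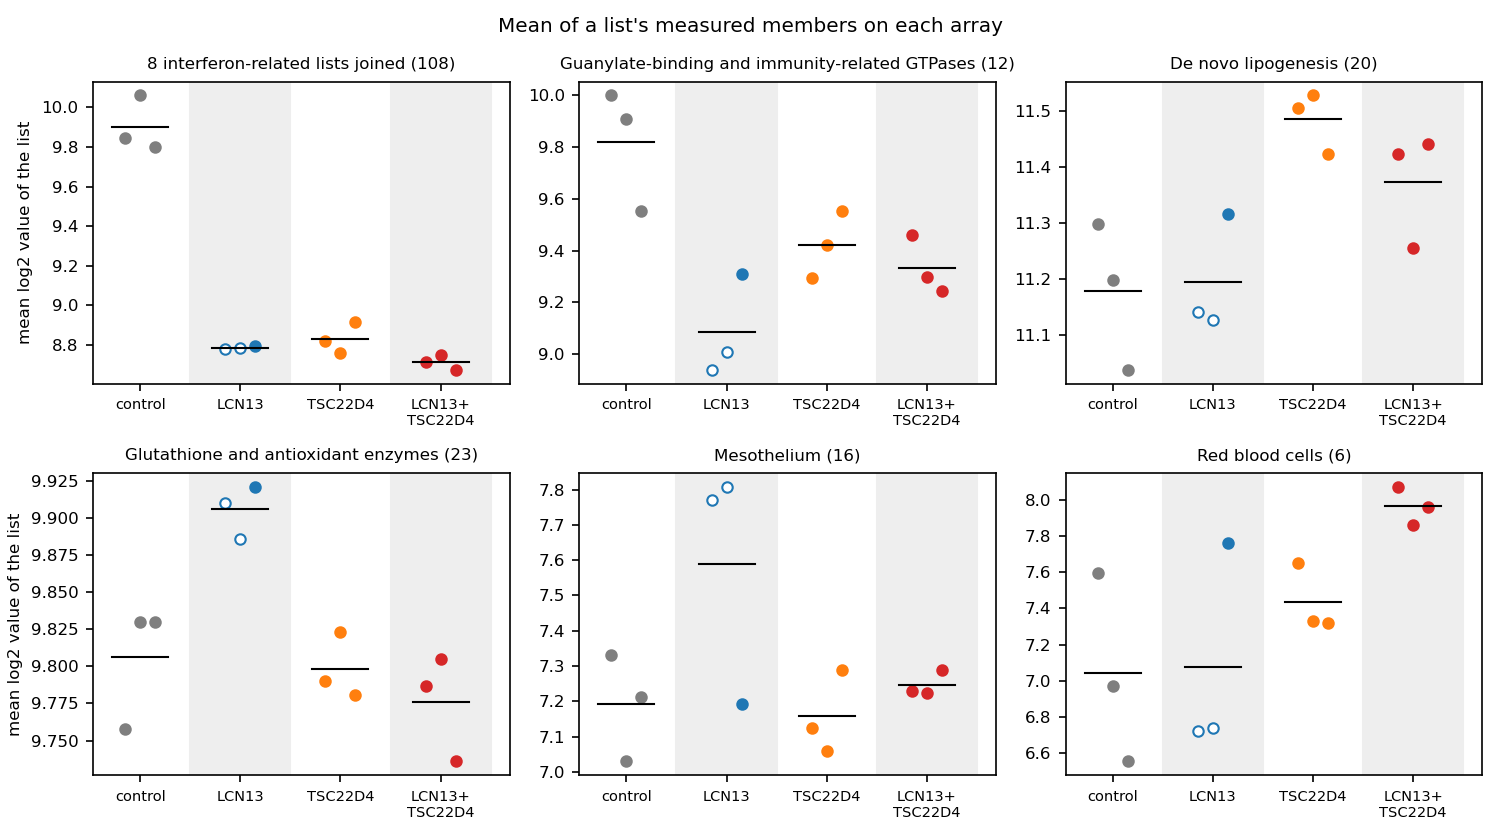
Mean log2 value over the measured members of 6 gene lists on each array, by group, with bars at the group means; open circles are LCN13 replicates 5 and 6. LCN13 replicate 8 lies with the combined arrays for red cell genes (7.76), mesothelial genes (7.191) and guanylate-binding and immunity-related GTPases (9.31). The joined interferon lists place all 3 LCN13 arrays within 8.779 to 8.795.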

How the data were processed

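Abdominal fat RNA was measured on 12 Affymetrix arrays, 3 for each of 4 groups. The authors deposited 1 log2 value per probe set and array, made with RMA per the submitters' processing notes. Not given in the sources used here are the RMA version and settings, the probe set definitions and the build. RMA gives all arrays 1 distribution (sorted columns differed by at most 0.00188), which removes a shift shared by most genes. Of 25206 probe sets, 23185 had 1 gene symbol, 0 several and 2021 none; the named ones were tested, with symbols and locations from RefSeq on GRCm38.p6.

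All 12 arrays were fitted with 1 mean per group in limma 3.58.1, run in R 4.3.3 with its lmFit and eBayes functions, two-sided, with Benjamini-Hochberg adjustment over all named genes. The fit had 8 residual and 1.38 prior degrees of freedom and was tested on simulated data. The number of arrays limits the precision. No filter was applied, and no p was adjusted over a list alone.

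Named genes are the called ones and those of smallest p up to 10 in each direction (no predicted, RNA or chemosensory receptor genes), the shRNA targets, members of smallest p of each of 52 lists (863 measured genes), 16 fixed readouts and the 5 largest called interactions in each direction; other list members named were chosen after their values were seen. Members, lists and rules were chosen with earlier results of these data known. Alternatives were the 6 arrays alone, array weights, a trended and robust prior, bright probe sets only, median centring, all probe sets, an adjusted p under 0.1, leaving out arrays, and averaging LCN13 replicates 5 and 6.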

Additional observations from a re-analysis of the deposited data

Results flagged for a closer look

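A limma interaction test, adjusted over all genes, was read for the 190 genes named by rule. In 28 of them the change with the TSC22D4 virus differed between mice with and without the LCN13 virus. These mice also differed in the amount of control virus. The values below are the log2 change with the LCN13 virus minus that without it.

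Above 0 were 23 genes, of which 22 came from interferon and antigen presentation lists. Genes were named partly from those lists and partly for a large interaction, so this share follows in part from the naming rule. Over all genes tested, 85 (0.367%) passed above 0, of which 50 belonged to the 8 interferon lists. The oligoadenylate synthetase genes had values of 3.46 (Oas1g), 3.41 (Oas3), 1.80 (Oasl1), 1.57 (Oas2) and 1.21 (Oasl2). The Ifi200 genes Ifi213 and Ifi209 had 3.21 and 2.86, and the Schlafen genes Slfn1 and Slfn8 had 2.54 and 1.70. Oas1g, Oas3 and Ifi213 lay close to the median of all values in the LCN13 arrays, which left little room for a further fall. Ifit1 had 2.61. The RNA and Z-form nucleic acid sensors Dhx58, Zbp1 and Ddx58 had 2.18, 1.79 and 1.06. The ISG15 pathway genes Usp18 and Ube2l6 had 2.37 and 1.22. The transcription factor Irf7 had 1.78. Other effectors were Phf11d with 1.60, Rtp4 with 1.48, Xaf1 with 0.99, Samd9l with 0.793 and Lgals9 with 0.68. Nlrc5, the activator of class I antigen presentation genes, had 0.805. The remaining gene was Pdk4 with 1.45, whose change was 0.63 with the LCN13 virus and -0.82 without it.

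Below 0 were 5 genes: Mrto4 with -0.606, Podxl with -0.601, Rab11b with -0.467, Des with -0.452 and Plec with -0.40. With LCN13 replicates 5 and 6 averaged, 23 of the 28 still passed.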

How the results depend on the processing

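No paired analysis was possible because the groups share no replicate numbers. The call of 2 genes depended on the setting. It became 0 with the 6 arrays alone, 0 with LCN13 replicates 5 and 6 averaged and 0 without both (the lone LCN13 array is then assumed to vary like the other groups), but 14 with array weights, 8 with a trended and robust prior, 7 with bright probe sets only and 11 at an adjusted p under 0.1. Leaving out 1 array at a time gave 0 to 94 calls. Interaction calls (92) ranged from 47 to 104 without 1 array, were 35 without LCN13 replicates 5 and 6, 130 with array weights, and 70 with both averaged. Of 190 named genes, 176 kept their sign in the 19 alternatives. The other 14 turned in at least 1. With 1 array left out, the log2 changes ranged from -0.00179 to 0.0133 (Obp2a), -0.148 to 0.0456 (Irs1), -0.0215 to 0.0234 (Scd1), -0.00879 to 0.102 (Srebf1), -0.0934 to 0.00456 (Oas1g), -0.148 to 0.116 (Slc2a4), -0.000325 to 0.0407 (Pnpla2), -0.533 to 0.116 (Saa3), -0.0693 to 0.0205 (Tsc22d2), -0.00765 to 0.101 (Ucp1) and -0.295 to 0.213 (Pck1). Without LCN13 replicates 5 and 6 the changes were -0.0677 (Trim25), 0.043 (Cxcl10), -0.0208 (Mccc1), 0.00456 (Tsc22d2), 0.20 (Irs1), -0.0247 (Scd1), -0.0625 (Srebf1), 0.0352 (Pck1), -0.00228 (Ucp1) and 0.0612 (Oas1g). With them averaged, Irs1 was 0.026 and Scd1 -0.00423, and with array weights Slc2a4 was -0.0346. The cause was not tested.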

Other observations

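In 30 genes the groups differed more than 2-fold, 19 higher and 11 lower in the combined group, and none was called; the genes below were named after their values were seen. Immunoglobulin genes made up 13 of the 30, of which 10 were higher and 3 lower. Igkv10-96 measured 6.63, 6.37 and 9.84 in the LCN13 arrays and 10.20, 10.31 and 9.58 in the combined arrays. Ighg2b measured 7.29, 7.56 and 8.94 against 9.69, 9.51 and 10.72, and the groups did not overlap. Ighg2c went the other way, at 10.54, 10.49 and 10.60 against 9.25, 7.26 and 10.79, with overlapping groups. Apol11b, an apolipoprotein L gene, measured 5.79, 5.90 and 7.20 against 8.64, 7.66 and 8.06, a change of 1.82 (limma adjusted p = 0.281).

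Of the 30 genes, 10 had their lowest value among these 6 arrays on combined replicate 14. Another 10 had it on LCN13 replicate 5, 6 on LCN13 replicate 6 and 4 on LCN13 replicate 8. Of those lowest on combined replicate 14, 5 follow as examples. Mmp7, a matrix metalloproteinase, measured 9.90, 9.74 and 10.17 in the LCN13 arrays and 8.67, 6.10 and 9.43 in the combined arrays. Adgrg2, an adhesion G protein-coupled receptor, measured 10.87, 10.93 and 11.18 against 10.25, 7.82 and 10.64. Plet1 (9.62, 9.69 and 10.22 against 9.12, 6.69 and 9.94) and Acsbg1, an acyl-CoA synthetase (8.17, 8.27 and 8.76 against 7.43, 6.20 and 8.20) also had their lowest value there. Alb, which encodes albumin, was at 11.12, 11.07 and 9.91 against 11.46, 8.30 and 8.31, with combined replicates 14 and 16 nearly equal and combined replicate 13 near LCN13 replicates 5 and 6.

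Of 2021 probe sets without a gene name, 1 was called when all probe sets were tested together (limma adjusted p = 0.0319), and 180 had an unadjusted p under 0.05.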
